A study of Mus musculus with 16 samples.

Results

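The genes described here encode 10 proteins of the matrix and cell surface of the brain, taken by name from the deposited expression table of 39171 features. They are the lecticans Bcan, Ncan and Vcan, the proteoglycan Cspg5, the tenascins Tnc and Tnr, the receptor phosphatase Ptprz1 and its ligand Ptn, and the syndecans Sdc2 and Sdc4. Each had 1 row in the table, and all 10 were above 0 in every library. The cells were astrocytes sorted from thalamus and spinal cord, taken from 4 C57BL/6 mice at postnatal day 15. All mice had the genotype IL-33-mCherry (het)/Aldh1l1-GFP+, that is, 1 copy of a red reporter of the cytokine gene Il33 and a green reporter of the astrocyte gene Aldh1l1. Every mouse gave an IL-33 reporter-positive and a reporter-negative library from each region, here called the positive and the negative gate, which makes 4 groups of 4 libraries. Each library came from 1 animal. The label gives all 4 groups as astrocytes, and the sources used here do not give the role of the green reporter in sorting.

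In the brain the matrix between cells has little collagen and is built on hyaluronan, a long sugar chain. Lecticans are proteoglycans, core proteins with chondroitin sulfate chains, that bind hyaluronan at one end and tenascins at the other, and tenascin-R crosslinks them in the perineuronal nets around neurons. Ptprz1 is a receptor phosphatase that carries the same sugar chains and binds pleiotrophin, the product of Ptn. Syndecans are transmembrane proteins with heparan sulfate chains that hold growth factors at the cell surface. Astrocytes and cells of the oligodendrocyte lineage are both known sources of these proteins, versican (Vcan) and tenascin-R (Tnr) being made by the oligodendrocyte lineage in particular.

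Promoter sequences are shown for 4 members whose levels moved in different ways between the gates: Tnr, Vcan and Ncan, which were lower in reporter-positive libraries of at least 1 region, and Bcan, which was higher in spinal cord ones. The RefSeq table of build GRCm38.p6 held promoters for 8 of the 10 members, all but Cspg5 and Sdc2. Each runs 5′ to 3′ on the gene's strand from 250 bases before the start site to 50 after it. Tnr lies on the plus strand at chr1:159523519-159523818, and the other 3 on the minus strand, Vcan at chr13:89742463-89742762, Ncan at chr8:70120795-70121094 and Bcan at chr3:88000307-88000606. Capitals mark matches on either strand to ACAAT or ACAAAG, letters that SOX factors bind, to the E-boxes CAGCTG or CATCTG, to the NFI motif TTGGCA, to the Sp-factor motif GGGCGG and to the core promoter motif TATAAA.
Tnr: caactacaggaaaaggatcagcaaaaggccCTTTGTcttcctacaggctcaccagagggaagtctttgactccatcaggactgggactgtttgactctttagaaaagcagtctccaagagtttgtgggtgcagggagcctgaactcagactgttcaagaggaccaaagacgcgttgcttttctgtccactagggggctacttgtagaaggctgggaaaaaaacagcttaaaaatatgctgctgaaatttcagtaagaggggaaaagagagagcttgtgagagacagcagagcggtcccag
Vcan: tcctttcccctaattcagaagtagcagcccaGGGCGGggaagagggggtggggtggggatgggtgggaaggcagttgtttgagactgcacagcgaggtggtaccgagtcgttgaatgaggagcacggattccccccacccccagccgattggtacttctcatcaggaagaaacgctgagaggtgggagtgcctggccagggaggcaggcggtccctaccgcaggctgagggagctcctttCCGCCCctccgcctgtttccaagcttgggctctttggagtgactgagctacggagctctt
Ncan: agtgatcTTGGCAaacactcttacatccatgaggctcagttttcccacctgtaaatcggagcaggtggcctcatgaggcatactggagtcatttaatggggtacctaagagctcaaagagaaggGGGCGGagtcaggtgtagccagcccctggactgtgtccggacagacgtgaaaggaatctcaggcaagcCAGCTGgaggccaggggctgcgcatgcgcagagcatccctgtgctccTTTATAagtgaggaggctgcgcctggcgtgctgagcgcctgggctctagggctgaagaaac
Bcan: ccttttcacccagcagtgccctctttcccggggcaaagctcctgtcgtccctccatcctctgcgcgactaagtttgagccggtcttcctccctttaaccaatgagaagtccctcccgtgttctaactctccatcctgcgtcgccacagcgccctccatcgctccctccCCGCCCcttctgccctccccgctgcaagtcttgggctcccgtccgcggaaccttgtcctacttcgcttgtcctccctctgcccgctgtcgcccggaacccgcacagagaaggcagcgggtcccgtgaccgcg
The Tnr promoter held 1 match, the SOX form CTTTGT, the reverse complement of ACAAAG, 220 bases before the start site. Ncan held 1 match each to the NFI motif TTGGCA, the Sp-factor motif GGGCGG, the E-box CAGCTG and the core motif TATAAA. The last was its reverse complement TTTATA, 11 bases before the start site. Vcan held 2 matches to GGGCGG and Bcan 1. Among all 32851 promoters of the table, 18.7% held ACAAAG, 31% ACAAT, 16.3% CAGCTG, 17.2% CATCTG, 14.1% TTGGCA, 35.7% GGGCGG and 13.6% TATAAA. The RefSeq start site of Bcan, at 88000356, lies outside the gene's span in the GENCODE vM21 annotation, which begins at 88000230 on the minus strand. That of Vcan, at 89742512, also lies just outside its span, which begins at 89742509.

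Levels are in FPKM, fragments scaled by transcript length and between libraries, so that they can be compared between genes. The sources used here do not say how libraries were scaled. Differences are on the log2(FPKM + 1) scale, were fitted with limma over the 16340 features that reached 1 FPKM in 4 or more libraries, and are called at a Benjamini-Hochberg adjusted p under 0.05. Libraries summed to between 984986 and 2344480 FPKM and held 13260 to 14731 features at 1 FPKM or more. Their size factors by median of ratios, computed on the FPKM, ran from 0.986 to 1.07. Mitochondrial genes took 32.6% to 49.3% of the sum in negative and 30.6% to 34.7% in positive thalamus libraries, and 22.6% to 43.8% against 23.1% to 28.9% in spinal cord ones. The negative libraries of mouse 1 had the highest share and the highest sum of their regions, and the part of this share in the differences was not tested. Depth in reads is unknown. Il33 itself was at 18.6 ± 6.01 FPKM in the negative and 27.4 ± 3.41 FPKM in the positive thalamus libraries, and at 24.6 ± 7.93 and 27.9 ± 3.49 FPKM in spinal cord ones (SD, n = 4), and neither difference was called (limma adjusted p = 0.0736 and 0.559). The 14 astrocyte markers summed to 7133 to 17177 FPKM in the 16 libraries, and none was at 0 in all libraries of a group. The 15 oligodendrocyte markers summed to 478 to 971 FPKM in the negative and 96.3 to 139 FPKM in the positive thalamus libraries, and to 3444 to 3682 and 195 to 227 FPKM in spinal cord ones. Mbp, which encodes a myelin protein, was at a mean of 224 FPKM in the negative and 29.9 FPKM in the positive thalamus libraries, and at 950.0 FPKM against 67.3 FPKM in the spinal cord. In libraries of sorted cells, fewer cells of a type and less RNA per cell cannot be told apart.

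The first question was how the genes differed between reporter-positive and reporter-negative astrocytes of the same region. In the thalamus Tnr, Ncan and Ptn fell in positive libraries and no member rose. In the spinal cord Tnr, Vcan and Tnc fell and Bcan rose. Called members numbered 3 of 10 in the thalamus, all lower, where 25.2% of all tested features were called, 11.6% higher and 13.6% lower. At an unadjusted limma p under 0.05 still 0 members were higher there and 4 were lower. Of all 16340 tested features 3080 were higher and 3104 lower at that unadjusted p. Among spinal cord libraries 4 of 10 were called, 1 higher and 3 lower, where 19.6% of all tested features were called, 9.04% higher and 10.5% lower. The median difference of the 10 genes was -0.43 in thalamus and 0.28 in spinal cord, against 0.06 and 0.09 over all tested features. All 10 passed the filter on low values. The plot of levels by library shows every value, and the plot of differences shows the intervals.

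**Figure D1:**
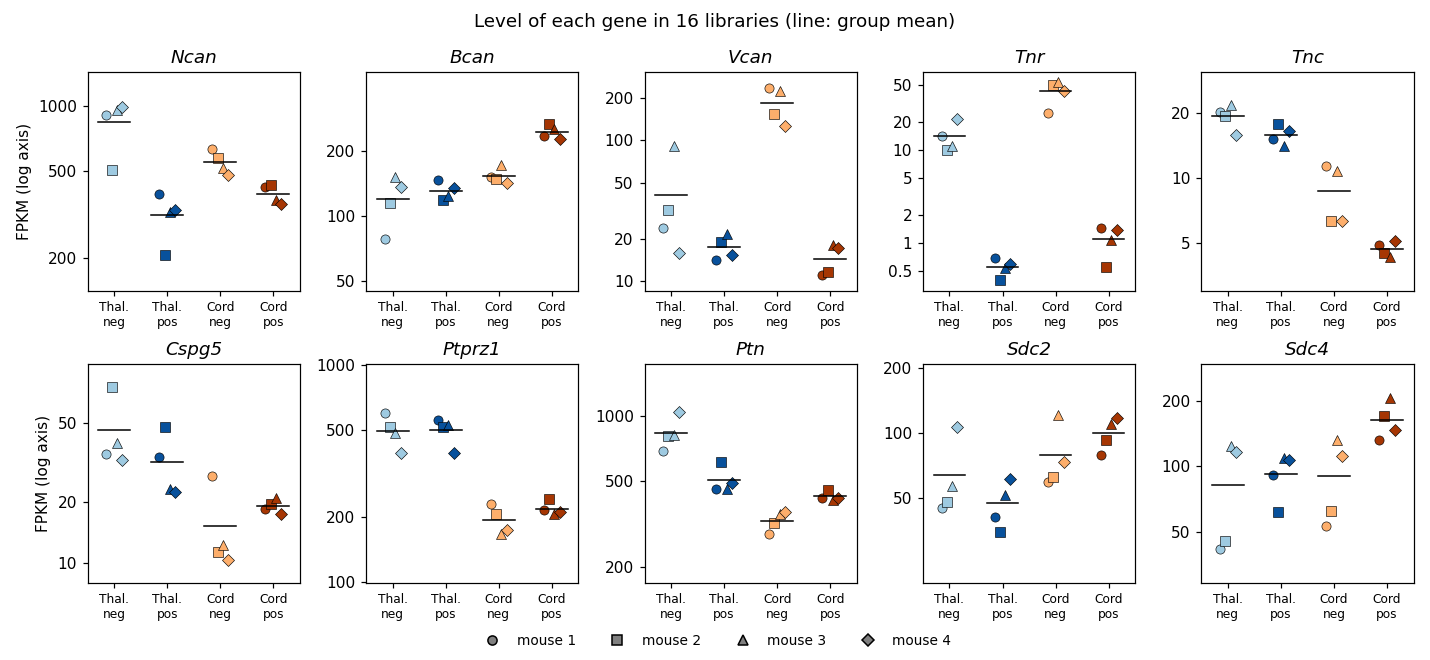
FPKM of each gene on a log axis in the 16 libraries, with 1 panel a gene, 1 marker shape a mouse and a line at each group mean of 4. Tnr lies below 1.5 FPKM in all 8 positive libraries and above 10 FPKM in all 8 negative ones, and Vcan is highest in the negative spinal cord libraries, from 126 to 236 FPKM.

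Neurocan, encoded by Ncan (GRCm38 chromosome 8, 70093085 to 70120873), is a lectican of the developing brain. In negative thalamus libraries of mice 1 to 4 it was at 911, 508, 957 and 991 FPKM, and in positive ones at 391, 205, 325 and 330.4 FPKM. All positive thalamus libraries lay below all negative ones, and mouse 2 was the lowest in both gates. In the spinal cord Ncan was at 633, 575, 516 and 481 FPKM in the negative and at 423, 432, 371 and 353 FPKM in the positive libraries, again with no overlap. The thalamus difference was -1.42 ± 0.23 (SE), a 2.69-fold lower mean, with a limma adjusted p of 0.000511. The spinal cord difference was -0.48 ± 0.23, with an adjusted p of 0.165, and it was lower in 4 of 4 mice. Fitted on the spinal cord libraries alone it had an adjusted p of 0.0443, the lowest of a range up to 0.357 in the other settings.

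Brevican, encoded by Bcan (chromosome 3, 87987531 to 88000230), is a lectican that astrocytes secrete around synapses. In the spinal cord it was at 151, 148, 173 and 142 FPKM in the negative and at 233, 266, 252 and 227 FPKM in the positive libraries of mice 1 to 4. The lowest positive library lay above the highest negative one. The difference was 0.67 ± 0.17 (SE), a 1.59-fold higher mean, with a limma adjusted p of 0.0142. The call was lost without mouse 2, 3 or 4 (0.61, 0.71 and 0.67, with adjusted p = 0.102, 0.0524 and 0.081), and adjusted p ran from 0.00139 to 0.102 in the other settings. In the thalamus Bcan was at 120.0 ± 31.3 FPKM in the negative and 131 ± 12.6 FPKM in the positive libraries (SD, n = 4), with overlapping groups and a difference of 0.16 (95% interval -0.21 to 0.53), which turned to -0.030 without the negative library of mouse 1 and -0.088 without mouse 1. The sum of the astrocyte markers also differed between the gates of the spinal cord, from 10138 to 12165 FPKM in the negative and 15391 to 17177 FPKM in the positive libraries. Its part in the Bcan result was not tested.

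Versican, encoded by Vcan (chromosome 13, 89655312 to 89742509), is a large lectican. Spinal cord libraries held it at 236, 154, 223 and 126 FPKM in the negative and at 11.1, 11.6, 18.1 and 17.0 FPKM in the positive libraries of mice 1 to 4. Every negative library held several times the level of any positive one. The difference was -3.57 ± 0.40 (SE), a 12.8-fold lower mean, with a limma adjusted p of 2.03e-05. In the thalamus Vcan was at 23.8, 31.9, 91.2 and 15.9 FPKM in the negative and at 14.02, 18.9, 21.5 and 15.2 FPKM in the positive libraries. Mouse 3 was the highest in both gates, the groups overlapped, and positive libraries were the lower ones in 4 of 4 mice. The thalamus difference of -0.88 ± 0.40 missed the threshold (limma adjusted p = 0.122). It was called without the negative library of mouse 4, at -1.21 with an adjusted p of 0.0356, the lowest among other settings, which reached 0.332.

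Tenascin-R, encoded by Tnr (chromosome 1, 159523769 to 159931729), is a glycoprotein that links lecticans to one another. In the thalamus it was at 14.2, 10.1, 11.1 and 21.6 FPKM in the negative and at 0.687, 0.401, 0.538 and 0.590 FPKM in the positive libraries of mice 1 to 4. In spinal cord libraries it was at 24.98, 50.5, 53.8 and 43.2 FPKM in the negative and at 1.45, 0.553, 1.08 and 1.38 FPKM in the positive ones. No negative and positive library overlapped in either region. Its differences were the largest among the 10 genes, -3.24 ± 0.27 (SE) in thalamus and -4.35 ± 0.27 in spinal cord, with limma adjusted p = 1.05e-06 and 3.7e-08. The mean was 25.8-fold lower in positive libraries of the thalamus and 38.7-fold lower in spinal cord ones. Called in every setting tried, Tnr had an adjusted p of at most 0.000198 in thalamus and 4.31e-05 in spinal cord. The size of its fall depended on the pseudocount, since positive libraries lay near 1 FPKM: a pseudocount of 5 gave -1.76 in thalamus and -2.93 in spinal cord, where Vcan then had the larger difference, -3.26.

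Tenascin-C, encoded by Tnc (chromosome 4, 63959785 to 64047015), is the tenascin of germinal zones and reactive tissue. Spinal cord libraries held it at 11.4, 6.30, 10.8 and 6.34 FPKM in the negative and at 4.88, 4.52, 4.30 and 5.12 FPKM in the positive libraries. The negative libraries of mice 1 and 3 stood above those of mice 2 and 4, and all 4 lay above the positive ones. The difference was -0.72 ± 0.19 (SE), with a limma adjusted p of 0.0147. The call was lost without mouse 1 (-0.61, adjusted p = 0.0875), without mouse 3 (-0.58, adjusted p = 0.139) and with only the spinal cord libraries in the fit (adjusted p = 0.0551), where other settings gave 0.00727 to 0.139. At a pseudocount of 5 the difference of Tnc was -0.48. In the thalamus Tnc was at 19.3 ± 2.47 FPKM in the negative and 15.8 ± 1.60 FPKM in the positive libraries (SD, n = 4), with overlapping groups and a difference of -0.26 (95% interval -0.67 to 0.14).

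Markers of other cell types also differed between the gates. Oligodendrocyte markers were lower in positive libraries in 12 of 15 tested genes of the thalamus and 13 of 15 of the spinal cord, with medians of -2.21 and -3.94. Precursor markers were lower in 7 and 8 of 10 tested genes, ependymal markers in 12 of 12 in both regions, and no gene of these 3 lists was higher, also at an unadjusted limma p under 0.05. At that unadjusted p 3080 of all 16340 tested features were higher in thalamus and 2756 in spinal cord. None of the 11 precursor markers found in the table was at 0 in all libraries of a group, and they summed to 276 to 359 FPKM in the negative and 173 to 264 FPKM in the positive thalamus libraries. Spinal cord libraries gave sums of 538 to 632 and 242 to 299.7 FPKM. Of the 11 precursor markers, 5 in thalamus and 6 in spinal cord stayed under 1 FPKM in every positive library. In the negative libraries of each region 0 did. The 2 genes of that list with the highest levels in positive libraries were Olig1, at 103 and 177 FPKM in thalamus and spinal cord, and Olig2, at 68.6 and 56.8 FPKM. Sox10, the lineage factor, was at 0.824 ± 0.252 and 0.841 ± 0.438 FPKM in positive libraries of the regions (SD, n = 4), against 17.7 ± 4.34 and 96.3 ± 15.6 FPKM in negative ones. The 12 ependymal markers summed to 330.2 to 556 FPKM in the negative and 8.63 to 9.33 FPKM in the positive thalamus libraries, and to 109 to 147 and 5.02 to 7.56 FPKM in spinal cord ones. Of 9 tested neuron markers 4 were lower in positive thalamus libraries (7 at an unadjusted limma p under 0.05) and 1 in spinal cord ones, and none was higher, also at an unadjusted p under 0.05. The 12 neuron markers summed to 213 to 257 FPKM in the negative and 161 to 186 FPKM in the positive thalamus libraries, and to 194 to 229 and 159 to 167 FPKM in spinal cord ones. The part of these cell types in the levels of Tnr, Vcan, Ncan, Tnc and Ptn was not tested.

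**Figure D2:**
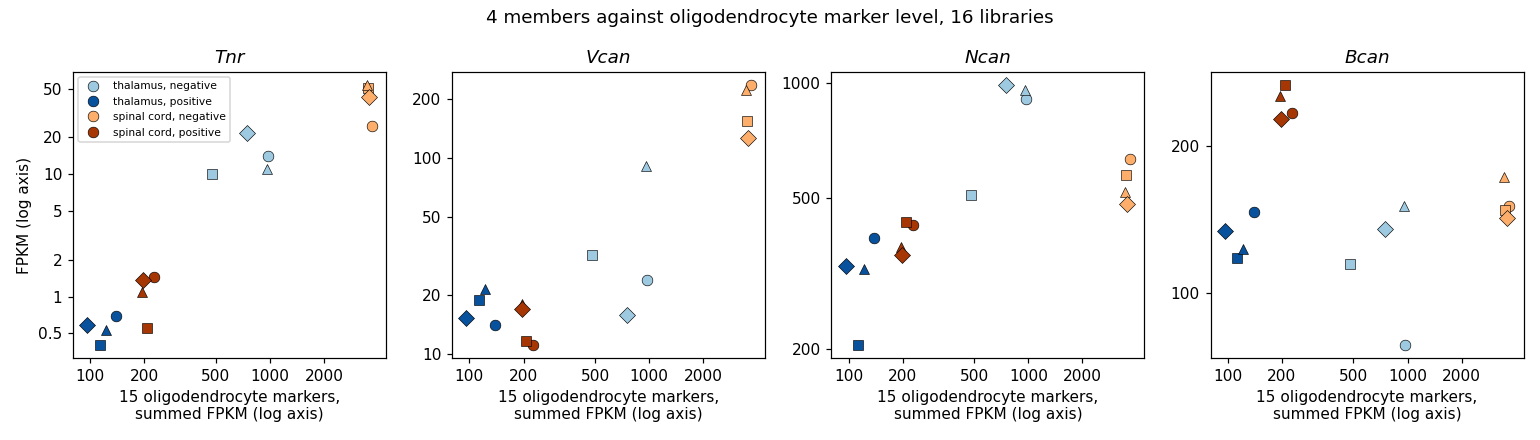
FPKM of Tnr, Vcan, Ncan and Bcan (y, log axis) against the summed FPKM of 15 oligodendrocyte markers (x, log axis) in the 16 libraries, coloured by group, with 1 marker shape a mouse. Tnr is high where the marker sum is high, while Bcan is highest, from 227 to 266 FPKM, in positive spinal cord libraries whose marker sum is 195 to 227 FPKM.

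Over the 16 libraries the log2 level of Tnr had a Pearson r of 0.97 with that of the summed oligodendrocyte markers, Vcan 0.89, Ncan 0.64 and Bcan -0.18. The summed precursor markers gave Tnr 0.90, Vcan 0.85, Ncan 0.58 and Bcan 0.03. With the summed astrocyte markers Bcan had 0.89, Sdc2 0.66, Sdc4 0.62, Ncan -0.08, Vcan -0.09, Tnr -0.16, Ptn -0.49, Cspg5 -0.50, Ptprz1 -0.72 and Tnc -0.88. The summed ependymal markers gave Tnr 0.84, Ncan 0.83, Vcan 0.56, Tnc 0.50, Ptn 0.40 and Bcan -0.58. In the negative thalamus libraries of mice 1 to 4 the oligodendrocyte markers summed to 971, 478, 962 and 749 FPKM. Vcan was at 23.8, 31.9, 91.2 and 15.9 FPKM in the same libraries. These correlations describe 16 libraries in 4 groups that share mice and sorts.

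Ptprz1 (chromosome 6, 22875502 to 23052916) was called in neither region. In the thalamus it was at 602, 516, 488 and 394 FPKM in the negative and at 559, 521, 529.5 and 394 FPKM in the positive libraries of mice 1 to 4. The spinal cord had it at 228, 205, 167 and 174 FPKM in the negative and at 214, 240.2, 206 and 211 FPKM in the positive ones. The differences were 0.01 (95% interval -0.34 to 0.35) and 0.18 (95% interval -0.17 to 0.52), with limma adjusted p = 0.983 and 0.486.

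Ptn (chromosome 6, 36714929 to 36810220), the gene of its heparin-binding ligand pleiotrophin, fell in the positive libraries of the thalamus. There it was at 686, 802, 813 and 1039 FPKM in the negative and at 461, 612, 458 and 487 FPKM in the positive libraries. The highest positive library, that of mouse 2, lay below the lowest negative one. All 12 ependymal, 12 of 15 oligodendrocyte and 4 of 9 neuron markers were lower in the same positive libraries. In positive spinal cord libraries 12 of 12, 13 of 15 and 1 of 9 were lower. The part of these markers in the Ptn values was not tested. The thalamus difference of Ptn was -0.72 ± 0.15 (SE), a 1.66-fold lower mean, with a limma adjusted p of 0.0033. It had adjusted p = 0.053 without mouse 3 and 0.0535 without mouse 4, where other settings gave 0.00148 to 0.0535. In the spinal cord Ptn was at 283, 318, 350.2 and 357 FPKM in the negative and at 415, 455, 406 and 419 FPKM in the positive libraries. Here the positive libraries were all above the negative ones, and the difference of 0.38 ± 0.15 was not called (limma adjusted p = 0.0972).

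Cspg5, the gene of the transmembrane proteoglycan neuroglycan C, did not pass in either region. It was at 45.8 ± 20.3 FPKM in the negative and 31.9 ± 11.8 FPKM in the positive thalamus libraries, and at 15.2 ± 7.89 and 19.2 ± 1.5 FPKM in spinal cord ones (SD, n = 4). The difference was -0.49 (95% interval -1.18 to 0.20) in thalamus and 0.41 (95% interval -0.28 to 1.11) in spinal cord. Mouse 2 was the highest of the 4 mice in both thalamus gates, at 75.9 and 48.0 FPKM.

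Sdc4 (chromosome 2, 164424247 to 164443887), the gene of a syndecan of focal adhesions, was at 53.3, 62.1, 133 and 111 FPKM in the negative and at 133, 170.0, 207 and 147 FPKM in the positive spinal cord libraries of mice 1 to 4. Each of the 4 mice had the higher level in the positive gate, the libraries of the gates did not overlap, and mice 1 and 2 were the lowest in the negative gate. The difference of 0.95 ± 0.38 (SE) was not called (limma adjusted p = 0.098), and it was called with the mouse as a replicate block, with an adjusted p of 0.021, the lowest among other settings, which reached 0.266. In the thalamus Sdc4 was at 81.7 ± 44.3 FPKM in the negative and 92.2 ± 22.0 FPKM in the positive libraries (SD, n = 4), with a 95% interval of the difference from -0.50 to 1.13. Sdc2 (chromosome 15, 32920723 to 33034935), another syndecan, was at 64.5 ± 28.9 and 47.5 ± 11.7 FPKM in thalamus and at 79.4 ± 28.7 and 100.3 ± 17.0 FPKM in spinal cord libraries, negative before positive. Its differences were -0.38 (95% interval -0.99 to 0.24) and 0.38 (95% interval -0.24 to 0.99).

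Libraries of the gates did not overlap for 3 members in the thalamus, Ncan, Tnr and Ptn, all lower in the positive gate, where this held for 25.8% of all tested features, 11.6% higher and 14.2% lower. Spinal cord gates did not overlap for 7 members, Bcan, Ncan, Vcan, Tnc, Tnr, Sdc4 and Ptn, where this held for 27.9% of all tested features, 13.8% higher and 14.1% lower. Of these 7, Bcan, Sdc4 and Ptn were higher in the positive gate.

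**Figure D3:**
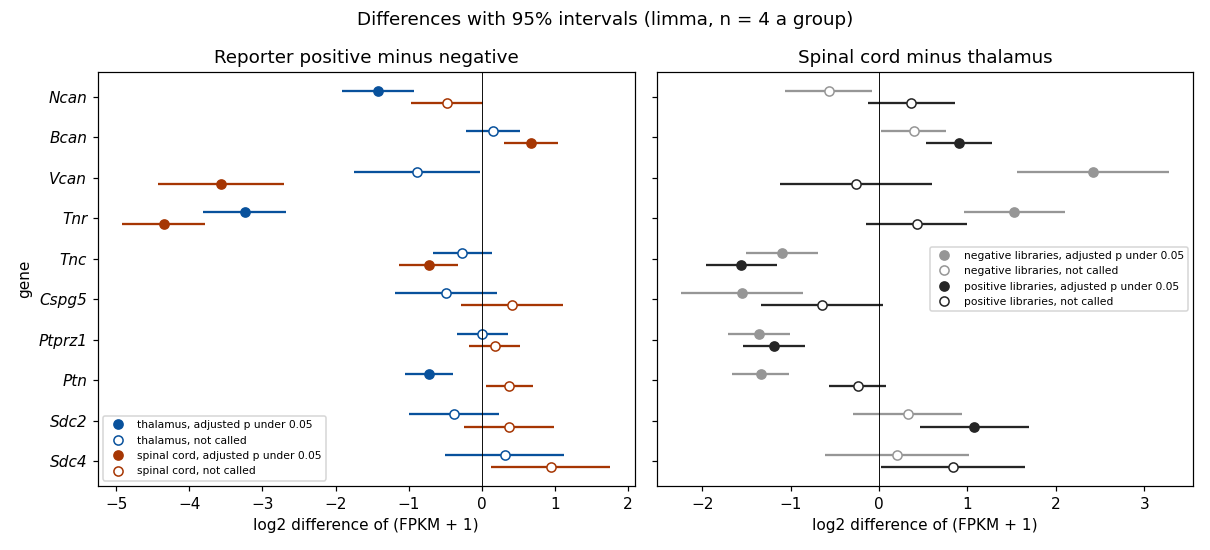
Log2 differences of FPKM + 1 for the 10 genes with 95% intervals from limma (n = 4 a group), positive minus negative on the left and spinal cord minus thalamus on the right; filled points have an adjusted p under 0.05. The interval of Tnr ends at or below -2.67 in both regions, and that of Vcan only in the spinal cord.

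The difference between the gates was next compared between the regions, with a test of spinal cord minus thalamus. It was called for Vcan and Ptn, 2 of 10 members, where 2.56% of all tested features were called, 1.13% higher and 1.43% lower. For Vcan it was -2.68 ± 0.57 (SE), the spinal cord having the larger fall, with a limma adjusted p of 0.0206. For Ptn it was 1.10 ± 0.21, since positive libraries were lower in thalamus and higher in spinal cord, with an adjusted p of 0.0124 and the same sign in 4 of 4 mice. In the negative gate Vcan was at 40.7 ± 34.3 FPKM in thalamus and 185 ± 53.0 FPKM in spinal cord, and at 17.4 ± 3.43 and 14.5 ± 3.60 FPKM in the positive gate (SD, n = 4). For Ptn the same values were 835 ± 148 and 327 ± 34.2 FPKM in the negative, and 504 ± 72.8 and 424 ± 21.6 FPKM in the positive gate.

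Both calls were lost without single mice, with estimates that moved little. Over all tested features, too, calls fell from 418 to 289, 66, 73 and 74 without mouse 1, 2, 3 or 4, at most 1.85% of the features tested then. That of Vcan was lost without mouse 1, 2 or 4 (-2.39, -2.61 and -2.66, adjusted p = 0.129, 0.195 and 0.102), and without the positive thalamus library of mouse 3 or the positive spinal cord library of mouse 1 or 2 (adjusted p = 0.053, 0.0512 and 0.052), where other settings gave 0.000684 to 0.195. That of Ptn was lost without mouse 2, 3 or 4 (1.16, 1.12 and 1.03, adjusted p = 0.0869, 0.157 and 0.13), in a range of 0.00577 to 0.157. Tnr had -1.11 ± 0.38 with an adjusted p of 0.163, and was called at a pseudocount of 5 (-1.17, adjusted p = 0.0428) and without the negative spinal cord library of mouse 1 (-1.34, adjusted p = 0.0447), in a range of 0.0428 to 0.559. Ncan had 0.94 ± 0.33 with an adjusted p of 0.177, and 1.16 with 0.0367 without the negative thalamus library of mouse 2 (0.0367 to 0.518). Bcan had 0.51 ± 0.25 with 0.356, and 0.70 with 0.0474 without the negative thalamus library of mouse 1 (0.0474 to 0.708). All p-values here are adjusted by limma.

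Spinal cord and thalamus were then compared within each gate. In negative libraries Vcan and Tnr were higher in the spinal cord, and Ptn, Ptprz1, Cspg5 and Tnc were lower. In positive libraries Bcan and Sdc2 were higher in the spinal cord, and Ptprz1 and Tnc were lower. Called members numbered 6 of 10 in negative libraries, where 9.81% of all tested features were called, 5.27% higher and 4.54% lower. In positive libraries 4 of 10 were called, where 6.1% of all tested features were, 4.22% higher and 1.88% lower. With only the positive libraries in the fit 5 members were called, among 25.9% of all tested features. The regions did not overlap for 6 members in the negative gate, the called ones, where this held for 9.06% of all tested features, 5.05% higher and 4.01% lower. In the positive gate they did not overlap for 7 members, Bcan, Cspg5, Tnc, Ptprz1, Sdc2, Sdc4 and Ptn, where this held for 29.7% of all tested features, 15.5% higher and 14.1% lower. The median difference of the 10 genes was -0.18 in the negative and 0.06 in the positive libraries, against -0.00407 and -0.00137 over all tested features.

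Ptprz1 and Tnc were lower in the spinal cord in both gates. For Ptprz1 the negative groups were 394 to 602 FPKM in thalamus and 167 to 228 FPKM in spinal cord, a difference of -1.36 ± 0.16 (SE), with a limma adjusted p of 6.99e-05. The positive groups were 394 to 559 and 206 to 240.2 FPKM, a difference of -1.19 ± 0.16, with an adjusted p of 0.000346. For Tnc the difference was -1.10 ± 0.19 in the negative and -1.56 ± 0.19 in the positive libraries, with adjusted p = 0.00153 and 0.000122. Tnc was at 15.8 to 21.7 FPKM in negative thalamus libraries and at most 11.4 FPKM in spinal cord ones, and in the positive gate at 13.98 to 17.7 against 4.30 to 5.12 FPKM. The groups did not overlap for either gene in either gate.

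Other members were called in 1 gate. In negative libraries Ptn differed by -1.34 ± 0.15 (SE), Cspg5 by -1.55 ± 0.32, Vcan by 2.42 ± 0.40 and Tnr by 1.53 ± 0.27, with limma adjusted p = 4.27e-05, 0.00628, 0.00118 and 0.00163. The mean of Ptn was 2.55-fold and that of Cspg5 3.01-fold lower in the spinal cord, while that of Vcan was 4.54-fold and that of Tnr 3.02-fold higher. In this gate 14 of 15 oligodendrocyte markers were higher in the spinal cord (median 2.21), as were 6 of 10 precursor markers. Vascular markers were higher there in 5 of 12 genes and ependymal markers lower in 10 of 12, with a median of -1.63 for the ependymal list. The part of these markers in the Vcan, Tnr, Ptn and Cspg5 values was not tested. Among positive libraries Vcan differed by -0.26 (95% interval -1.12 to 0.60) and Tnr by 0.43 (95% interval -0.14 to 0.99). Tnr was near the floor there, at means of 0.554 FPKM in thalamus and 1.12 FPKM in spinal cord. It was higher in the spinal cord in 4 of 4 mice, and other settings gave 0.14 to 0.84. In this gate 2 of 15 oligodendrocyte markers were higher in the spinal cord, and their part in these values was not tested. With only the negative libraries in the fit, Vcan, Tnr, Cspg5 and Tnc had adjusted p = 0.0576, 0.057, 0.0948 and 0.0782, the highest that any setting gave for these 4 genes, whose lowest were 2.08e-05, 0.000386, 0.00115 and 0.000813. Cspg5 also lost its call without mouse 2 (-1.19, adjusted p = 0.051) or mouse 3 (-1.52, adjusted p = 0.0601). Ncan, at -0.57 ± 0.23 with an adjusted p of 0.146, was called without mouse 2 (-0.82, adjusted p = 0.0182) and without its negative thalamus library (-0.80, adjusted p = 0.0224), in a range of 0.0182 to 0.481.

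In positive libraries Bcan was at 118.3 to 147 FPKM in thalamus and 227 to 266 FPKM in spinal cord, a difference of 0.90 ± 0.17 (SE), with a limma adjusted p of 0.00538. It was 1.87-fold higher in the mean and lost the call without mouse 2, 3 or 4 (0.81, 0.86 and 0.95, adjusted p = 0.101, 0.0688 and 0.0555; 0.000402 to 0.101 in other settings). Sdc2 was at 35.2 to 61.6 FPKM in thalamus and 79.5 to 117 FPKM in spinal cord, a difference of 1.08 ± 0.29 with an adjusted p of 0.0378. The Sdc2 groups did not overlap, but its call was lost in 12 of 27 other settings, among them each mouse left out in turn, with adjusted p = 0.0948, 0.211, 0.158 and 0.0644 for mice 1 to 4 and 0.00678 to 0.211 over all. It was also lost without the positive thalamus library of mouse 1, 2 or 3 (adjusted p = 0.0991, 0.119 and 0.0703), without the positive spinal cord library of any 1 mouse (0.0512, 0.0852, 0.109 and 0.103 for mice 1 to 4) and with no filter (0.0594). Sdc4 was at 61.6 to 109 and 133 to 207 FPKM, a difference of 0.84 ± 0.38 that was not called (adjusted p = 0.258), and it had 0.0248 with only the positive libraries in the fit (0.0248 to 0.598). In this gate 8 of 14 astrocyte markers were higher in the spinal cord and 1 was lower, with a median of 0.61. Their part in the Bcan and Sdc2 values was not tested.

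The make-up of each family was then described per library, as each gene's share of the summed FPKM of its family. These shares were chosen after the values were seen and were not tested. Among the 4 lecticans, aggrecan (Acan) included, Ncan took 83.5 ± 5.78% in the negative and 67.2 ± 4.98% in the positive thalamus libraries, and 62.1 ± 3.92% and 60.3 ± 2.43% in spinal cord ones (SD, n = 4). Bcan took 12.4 ± 4.02% and 28.8 ± 3.92% in thalamus and 17.4 ± 2.00% and 37.4 ± 1.87% in spinal cord. Vcan took 20.5 ± 3.86% in negative spinal cord libraries and at most 7.60% in any library of the other groups. Acan took at most 0.0198% in any library. The Bcan share of every positive library lay above that of every negative library of its region, from 26.2% to 34.6% against 7.74% to 17.5% in thalamus and 34.9% to 39.4% against 14.8% to 19.0% in spinal cord. In the thalamus the level of Bcan itself overlapped between the gates, with means of 120.0 FPKM (negative) and 131 FPKM (positive). Ncan had means of 842 and 313 FPKM there.

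In the spinal cord Tnr was the larger of the tenascins in all negative libraries and Tnc in all positive ones, while in the thalamus Tnc had the larger mean in both gates. Tnr took 82.0 ± 9.19% of their sum in the negative and 18.8 ± 5.36% in the positive spinal cord libraries, and 41.8 ± 11.1% and 3.43 ± 0.884% in thalamus ones (SD, n = 4). Their sum was 36.4 to 64.6 FPKM in the negative and 5.07 to 6.497 FPKM in the positive spinal cord libraries, and 29.5 to 37.5 and 14.5 to 18.1 FPKM in thalamus ones. Of the 4 syndecans, Sdc4 took 57.4 ± 3.13% in positive and 41.3 ± 8.07% in negative thalamus libraries, and 52.2 ± 4.08% and 36.6 ± 4.08% in spinal cord ones. The level of Sdc4 itself overlapped between the thalamus gates, with means of 92.2 FPKM (positive) and 81.7 FPKM (negative). Sdc3 had means of 20.2 and 46.1 FPKM there. Sdc3 took less in positive than in negative libraries, 12.9 ± 2.196% against 23.7 ± 1.80% in thalamus and 15.7 ± 2.45% against 29.96 ± 4.53% in spinal cord, with no overlap in either region. Sdc1 took at most 0.436% in any library.

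**Figure D4:**
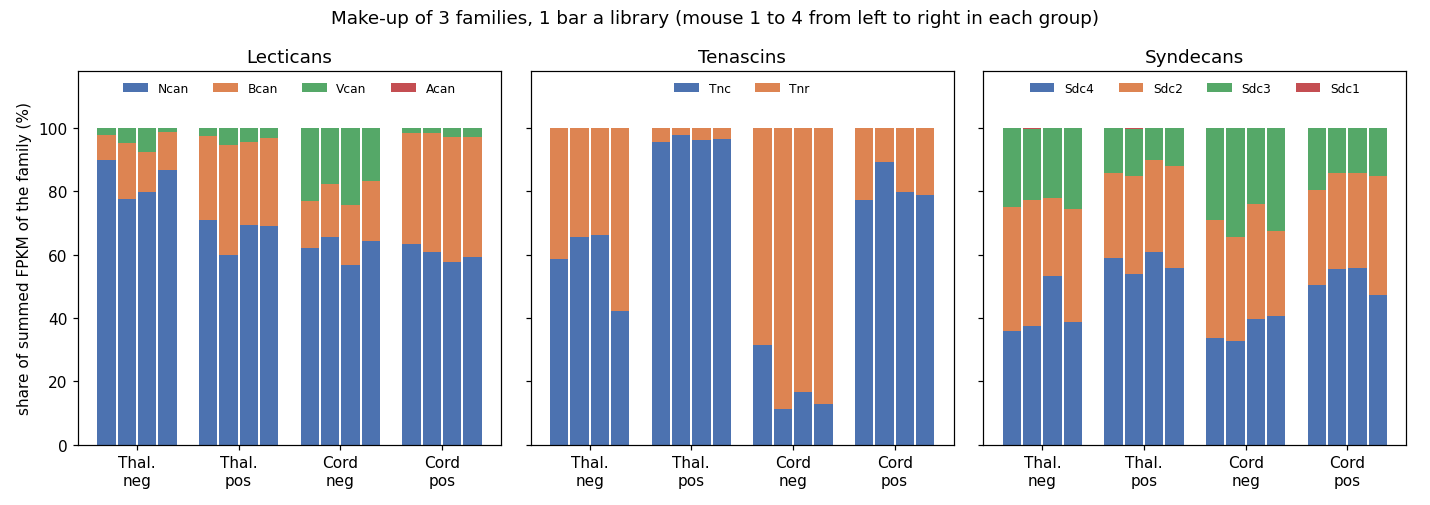
Share (%, y) of each gene in the summed FPKM of the lecticans, tenascins and syndecans, with 1 stacked bar a library and mice 1 to 4 from left to right in each of the 4 groups. Bcan takes a larger part of the lecticans in positive libraries, Tnr takes 68.7% to 88.9% of the tenascins in negative spinal cord libraries, and Vcan takes 16.8% to 24.4% of the lecticans in that group. Between the gates the level of Bcan itself was called in the spinal cord only.

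Ligand and receptor were also set side by side. The ratio of Ptn to Ptprz1 in FPKM was 1.75 ± 0.635 in the negative and 1.02 ± 0.211 in the positive thalamus libraries, and 1.73 ± 0.412 and 1.95 ± 0.0393 in spinal cord ones (SD, n = 4). The libraries of the gates overlapped in both regions. The ratio of Ncan to Bcan was 4.42 to 11.6 in the negative and 1.73 to 2.67 in the positive thalamus libraries, and 2.99 to 4.20 and 1.47 to 1.82 in spinal cord ones, with no overlap between the gates of a region. These ratios do not depend on the scaling between libraries and were not tested.

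Levels per length put Ncan, Ptn and Ptprz1 at the top in 3 of the 4 groups. In negative thalamus libraries the order of the means was Ncan, Ptn, Ptprz1, Bcan, Sdc4, Sdc2, Cspg5, Vcan, Tnc and Tnr, and the ranges of neighbours overlapped except between Ptn and Ptprz1 and between Ptprz1 and Bcan. Positive thalamus libraries had Ptn, Ptprz1, Ncan, Bcan, Sdc4, Sdc2, Cspg5, Vcan, Tnc and Tnr, and there Ptn and Ptprz1, Sdc2 and Cspg5, and Vcan and Tnc had overlapping ranges in that list of neighbours. In negative spinal cord libraries the order was Ncan, Ptn, Ptprz1, Vcan, Bcan, Sdc4, Sdc2, Tnr, Cspg5 and Tnc, with Ptprz1, Vcan and Bcan, Sdc4 and Sdc2, and Tnr, Cspg5 and Tnc overlapping as neighbours. Positive spinal cord libraries had Ptn, Ncan, Bcan, Ptprz1, Sdc4, Sdc2, Cspg5, Vcan, Tnc and Tnr, with Ptn and Ncan, Bcan, Ptprz1 and Sdc4, and Cspg5 and Vcan overlapping. Ncan ranked 86 from the top among 16340 tested features in negative thalamus libraries, and Tnr ranked 15471 in positive ones.

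For each member the 3 protein-coding genes of most similar level over the 16 libraries were found by Pearson correlation among 10386 candidates with a mean of at least 2 FPKM. Tnr was most like Bcas1 (r = 0.987), Pacs2 (0.985) and Tubb4a (0.984), of which Bcas1 and Tubb4a are known oligodendrocyte genes. Vcan was most like Plekhh1 (0.960), Trf (0.954) and Tpd52 (0.943), Trf encoding the iron carrier transferrin. Bcan was most like Cyp2d22 (0.969), Cntfr (0.957) and Ctsl (0.953), the genes of a cytochrome, a cytokine receptor subunit and a lysosomal protease. Ptprz1 was most like Fmo1 (0.961), Dner (0.954) and Otx2 (0.952), Otx2 being a transcription factor of the anterior brain. Ptn was most like Rspo3 (0.950), Scara3 (0.914) and Lect1 (0.913), and Ncan was most like Rnf14 (0.931), Cplx2 (0.922) and Pkia (0.920). Tnc had Ptpn13 (0.934), 9330182L06Rik (0.923) and Sfxn1 (0.918), and Cspg5 had Scg3 (0.911), Smek2 (0.896) and Pou3f3 (0.882). Sdc4 had Erlin1 (0.906), Slc2a4 (0.892) and Igfbp2 (0.880), and Sdc2 had Tmed10 (0.883), Cyc1 (0.859) and Glud1 (0.847). Among the 45 pairs of members, Tnr and Vcan had an r of 0.82, Ptprz1 had 0.83 with Tnc and 0.82 with Cspg5, Bcan had 0.80 with Sdc4, and Bcan and Tnc had -0.83. The points of all these correlations are libraries of 4 groups, so that group differences enter every r.

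Genes of the wider pathway were counted in 7 lists, to be read beside the shares over all tested features. These were 25.2% called in the thalamus, 11.6% higher and 13.6% lower. In the spinal cord they were 19.6%, 9.04% higher and 10.5% lower. At an unadjusted limma p under 0.05, 3080 of 16340 tested features were higher and 3104 lower in the thalamus. In the spinal cord 2756 were higher and 2570 lower at that unadjusted p. Of 10 tested genes of hyaluronan and its link proteins, 0 were higher (0 also at an unadjusted limma p under 0.05) and 2 lower in positive thalamus libraries, and 2 were higher and 3 lower in spinal cord ones. Hapln1, the gene of a link protein that ties lecticans to hyaluronan, rose from 5.60 ± 3.02 to 18.2 ± 1.93 FPKM in the spinal cord (SD, n = 4), a difference of 1.63 ± 0.29 (SE, limma adjusted p = 0.000941). Cd44, the gene of a hyaluronan receptor, fell by 1.67 ± 0.35 (SE) there and fell by 1.296 ± 0.35 in the thalamus (limma adjusted p = 0.00389 and 0.0154). In spinal cord Hyal1, the gene of a hyaluronidase, also rose, by 1.04, while Hapln2 differed by -1.64. Cemip2 differed by -2.204 in spinal cord and -0.73 in thalamus, and was called in both.

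Among 16 tested genes of other proteoglycan cores, 2 were higher and 4 lower in the thalamus, and 4 were higher and 2 lower in the spinal cord. Bgn, the gene of the small proteoglycan biglycan, was at 61.7 ± 7.73 FPKM in the negative and 8.26 ± 1.52 FPKM in the positive thalamus libraries, and at 185 ± 82.9 and 22.2 ± 4.74 FPKM in spinal cord ones (SD, n = 4). The differences were -2.77 ± 0.25 and -2.92 ± 0.25 (SE), with limma adjusted p = 3.2e-06 and 1.46e-06. Gpc5, the gene of a lipid-anchored glypican, rose in both regions, from 50.4 ± 7.19 to 76.3 ± 8.88 FPKM and from 67.8 ± 14.5 to 121.6 ± 7.03 FPKM, with limma adjusted p = 0.012 and 0.00121. Of other glypican genes, Gpc2 rose in both regions, by 0.81 (thalamus) and 1.49 (spinal cord; limma adjusted p = 0.039 and 0.00115), and Gpc4 rose by 0.9997 in the spinal cord, and in the thalamus Tgfbr3 differed by -1.21 and Spock2 by -1.14. Vascular markers were lower in positive libraries in 3 of 12 genes of the thalamus, with 1 higher, and in 7 of 12 of the spinal cord, and their part in the Bgn values was not tested.

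Of 12 tested matrix partners, 1 was higher and 4 lower in each region. No tenascin other than Tnc and Tnr in these lists passed the filter on low values. Sparc, the gene of a collagen-binding matrix protein, was at 1642 ± 393 FPKM in the negative and 485 ± 55.8 FPKM in the positive thalamus libraries (SD, n = 4), a fall of 1.73 ± 0.21 on the log2 scale (SE, limma adjusted p = 4.24e-05), and it fell by 0.69 in the spinal cord. In the thalamus Lama2, the gene of a laminin chain, rose by 0.68. Vtn, that of vitronectin, fell by 2.49 ± 0.79 (SE, limma adjusted p = 0.0323) there, with overlapping groups. In spinal cord Thbs2, that of a thrombospondin, rose by 0.72 and Fn1, that of fibronectin, fell by 2.05. Of 13 tested partners of Ptprz1, 1 was higher and 4 lower in the thalamus, and 0 were higher (2 at an unadjusted limma p under 0.05) and 3 lower in the spinal cord. Cntn1, the gene of contactin-1, a neural adhesion partner of the phosphatase, differed by -1.55 ± 0.15 (SE) in thalamus and -1.24 ± 0.15 in spinal cord. Fyn, the gene of a tyrosine kinase, differed by -0.97 ± 0.15 and -1.95 ± 0.15. Their limma adjusted p was 4.66e-06 and 3.91e-05 for Cntn1, and 0.000288 and 3.35e-07 for Fyn. Erbb4, the gene of a neuregulin receptor, rose by 1.56 and Ctnnb1, that of beta-catenin, fell by 1.51 in the thalamus. Ctnnb1 also fell in the spinal cord, by 0.60.

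Of 18 tested genes of chondroitin sulfate synthesis, 3 were higher and 0 lower (0 also at an unadjusted limma p under 0.05) in positive thalamus libraries, and 7 were higher and 2 lower in spinal cord ones, with medians of 0.25 and 0.50. This list includes the linker genes that heparan sulfate chains share, Xylt1 among them. The list of heparan sulfate genes leaves them out and also holds the gene of a syndecan-binding protein. Xylt1, the gene of the enzyme that starts the chain on the core protein, rose from 10.4 ± 3.51 to 26.9 ± 2.58 FPKM in thalamus and from 7.67 ± 4.42 to 18.5 ± 2.61 FPKM in spinal cord (SD, n = 4; limma adjusted p = 0.00311 and 0.00522). Ust, the gene of a sulfotransferase of uronic acid, fell by 2.05 ± 0.21 (SE) in the spinal cord (limma adjusted p = 6.75e-06). Chst3, another sulfotransferase gene, differed by -1.05 and Chpf2, a chain polymerization gene, by 1.18 in the spinal cord, and Chst14 rose in both regions, by 1.14 (thalamus) and 0.77 (spinal cord). Of 15 tested genes of heparan sulfate synthesis and editing, 1 was higher and 5 lower in the thalamus, and 1 was higher and 2 lower in the spinal cord, with medians of -0.39 and -0.25. Sulf2, the gene of an enzyme that removes sulfate from heparan sulfate outside the cell, was at 101.2 ± 15.3 FPKM in the negative and 13.3 ± 2.56 FPKM in the positive thalamus libraries, and at 167 ± 33.6 and 2.84 ± 0.836 FPKM in spinal cord ones. The differences were -2.84 ± 0.20 and -5.46 ± 0.20 (SE), with limma adjusted p = 2.2e-07 and 1.89e-10. Its paralogue Sulf1 differed by -2.13 in thalamus and -1.27 in spinal cord, and Extl1 by 0.96 and 1.13, all called, while the sulfotransferase gene Ndst3 differed by -1.41 in the thalamus.

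Of 13 tested matrix proteases and inhibitors, 0 were higher (0 also at an unadjusted limma p under 0.05) and 2 lower in the thalamus, and 4 were higher and 3 lower in the spinal cord. Adamts4, the gene of a protease that cuts lecticans, was at 19.3 ± 7.68 FPKM in the negative and 0.611 ± 0.150 FPKM in the positive spinal cord libraries, and at 5.71 ± 2.30 and 0.798 ± 0.515 FPKM in thalamus ones (SD, n = 4). The differences were -3.59 ± 0.32 in the spinal cord and -1.86 ± 0.32 in the thalamus (SE), with limma adjusted p = 2.06e-06 and 0.000853. Adamts9, another such protease gene, rose from 9.27 ± 1.28 to 20.1 ± 1.94 FPKM in the spinal cord (limma adjusted p = 0.00221). Timp3, an inhibitor gene, and Mmp14, a metalloprotease gene, rose there by 0.77 and 0.65, and Mmp16 fell by 1.24. Timp2, the gene of a metalloprotease inhibitor, differed by -2.15 ± 0.24 (SE) in thalamus and -1.92 ± 0.24 in spinal cord (limma adjusted p = 2.18e-05 and 5.73e-05). Oligodendrocyte and ependymal markers fell in the same libraries as Sulf2, Fyn, Adamts4 and Timp2, and their part was not tested.

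**Figure D5:**
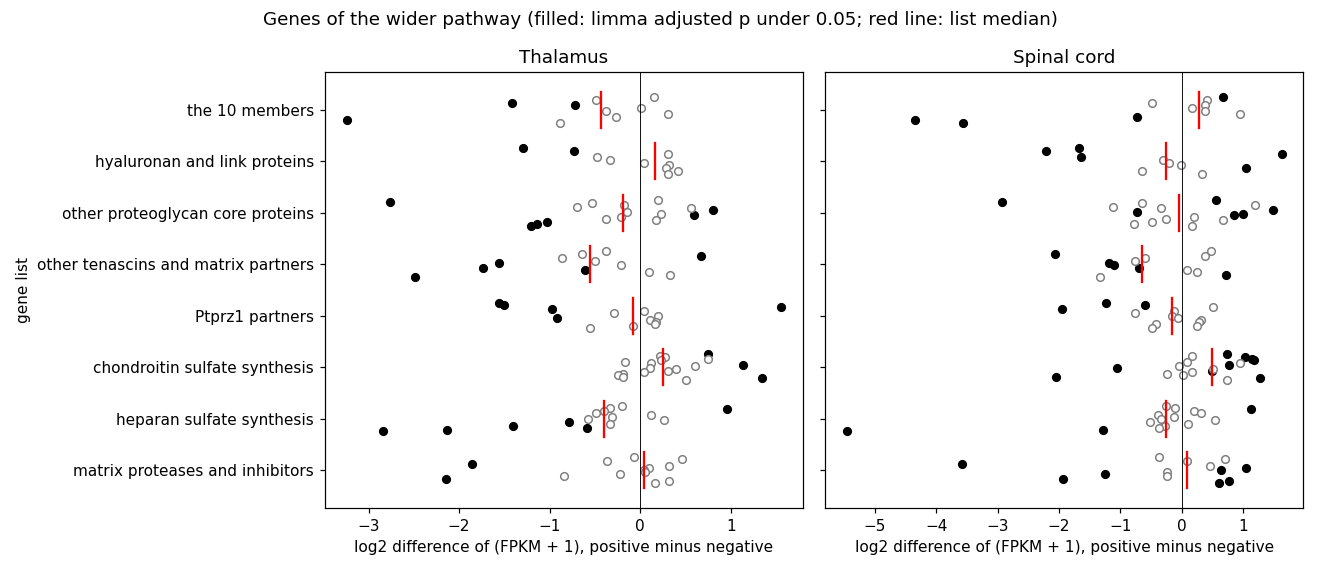
Log2 difference of FPKM + 1, positive minus negative, of each tested gene in 8 lists (y) for the thalamus and the spinal cord; filled points have a limma adjusted p under 0.05 and the red line is the list median. Chondroitin sulfate synthesis has medians of 0.25 and 0.50 and heparan sulfate synthesis medians of -0.39 and -0.25. Linker genes that both chains share are in the chondroitin sulfate list only.

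In the authors' deposited table of positive against negative libraries, which holds 444 features, Ncan was the 1 member listed. The authors' deposited table gives it a log2 fold change of -0.99 with a standard error of 0.20 and an adjusted p of 1.12e-05, with both regions in 1 value. Of the genes in the 7 lists, Gpc5 and Timp2 were in the authors' deposited table, at 0.69 and -2.24.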

How the data were processed

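RNA was measured in 16 libraries of sorted astrocytes, 4 in each of 4 groups, built with NuGEN RNA-Seq V2 from RNA of a Qiagen micro kit, per the labels' protocols. Build GRCm38 was used, with DESeq2, Cufflinks, Cuffnorm, HTSeq 0.6.1p1, FastQC, Bowtie2 2.2.3 and TopHat2 2.0.11 among the tools, per the submitters' processing notes, which give no roles. The main table holds FPKM that the authors deposited. A second table, per the file headers, has group means in FPKM that the authors computed, a mean normalized signal, log2 fold changes, a test score, and p-values with their adjusted form.

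Features were named from the files, and 16252 without a symbol there by identifier from the reference table, which named 15208. The 10 members all had symbols. Positions are from GENCODE vM21. Vcan, Tnc and Tnr overlap annotated noncoding genes with mean levels of 1.98 to 3.76 FPKM. The sources used here do not say whether counting used strand, so their reads cannot be told apart. Low FPKM values shared a common step between libraries in at most 10.8% of features, so reads and depth were not recovered.

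limma 3.58.1 in R 4.3.3 was fitted on log2(FPKM + 1) with a coefficient for each group, all 16 libraries together, and an intensity-dependent prior, tested on simulated data first. The libraries are paired by mouse number, since per the labels 1 number is 1 animal. The main fit did not use this pairing, and the replicate block was an alternative setting. Deviations from group means had a mean correlation of 0.0358 over 24 same-mouse pairs (-0.0135 to 0.0919) and -0.0119 over 72 others. Single genes could differ from this mean: the SE of Sdc4 in the spinal cord was 0.38 without and 0.25 with the block. Alternatives changed the pseudocount (0.1 or 5), the filter (none, or 5 FPKM), the scaling (median of ratios), the libraries fitted, the block and the libraries left out. The members and gene lists were chosen with earlier results of these data known. The text names all members, up to 3 genes per list and direction with the largest called change of the same sign in 4 of 4 mice and at least 2 FPKM, and up to 2 of the most abundant markers per list. Of the marker lists, the text names genes of the oligodendrocyte and precursor lists only, and 1 gene of these that the rule selects is not reported here. Sox10, Acan, Sdc1 and Sdc3 were added after their values were seen. limma's p-values in the text are Benjamini-Hochberg adjusted over all tested features.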

Additional observations from a re-analysis of the deposited data

Results flagged for a closer look

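The difference between the gates itself differed between the regions for Vcan, by -2.68 on the log2 scale (spinal cord minus thalamus), and for Ptn, by 1.10. In 3 of 40 groups of 4 libraries 1 library stood far from the others, by the gap to its neighbour over the range of the group (Dixon's ratio above 0.829). Chance alone marks about 1 in 20 such groups. Ncan was at 508 FPKM in the negative thalamus library of mouse 2, where the next lowest was at 911 FPKM. Cspg5 was at 75.9 FPKM in the same library, where the next highest was at 39.9 FPKM. It was also at 27.0 FPKM in the negative spinal cord library of mouse 1, where the next highest was at 12.3 FPKM.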

How the results depend on the processing

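Beside the main values, the log2 differences of the 10 genes in 5 comparisons were recomputed under up to 27 other settings, which gave 1281 values of the same direction and side of the threshold, 38 that lost the call, 10 that gained it and 11 that changed sign. Sign changes touched only differences near 0 that were not called. Ptprz1 in the thalamus (0.01) became -0.00244 after median-of-ratios rescaling, and it ran from -0.10 to 0.12 with 1 mouse or library left out, below 0 without mouse 3, without the negative library of mouse 4 or without the positive library of mouse 1, 2 or 3 (-0.031, -0.10, -0.050, -0.016 and -0.024). Bcan in the thalamus (0.16) ran from -0.088 to 0.31, with -0.088 without mouse 1 and -0.030 without its negative library. Sdc4 between the regions in negative libraries (0.21) ran from -0.052 to 0.46, with -0.052 and -0.014 without the negative thalamus library of mouse 1 or 2, and -0.011 without the negative spinal cord library of mouse 3. Called members between the regions in negative libraries fell from 6 to 2 with only the groups compared in the fit; the estimates were the same and the spread came from 8 libraries, and calls over all tested features fell from 9.81% to 2.16%. Leaving out 1 mouse or 1 library gave 2 to 4 called members in the thalamus (3 with all), 2 to 4 in the spinal cord (4 with all), 0 to 3 for the difference between regions (2 with all), 5 to 7 between regions in negative libraries (6 with all) and 2 to 4 in positive ones (4 with all). Without mouse 2 or without mouse 4, 0 members were called by limma for the difference, and 3 had an unadjusted p under 0.05. In these 2 settings 0.424% and 0.477% of all tested features were called. With the mouse as a replicate block the counts were 3, 5, 2, 6 and 4, the Sdc4 call in the spinal cord being the 1 change. The share of all tested features called with this block was 25.1%, 19.6%, 2.10%, 9.43% and 6.00%. Depth in reads is unknown, so no counting error is given for Tnr near 1 FPKM.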
